A study of Mustela putorius furo with 8 samples.

Results

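A set of 10 genes of glycolysis and of the response to low oxygen were followed in ferret pancreatic ductal epithelium (PDE) with and without CFTR. They were taken by symbol: the glycolytic enzymes LDHA, PGK1, ENO1 and ALDOA, the glucose transporter SLC2A1, the oxygen sensor EGLN3, and CA9, VEGFA, ADM and NDRG1, whose transcription is known to rise when oxygen falls. All 10 symbols were found once among the 27912 genes counted, and each matched a protein-coding gene of the RefSeq annotation of ASM1176430v1.1. ADM stands here for the gene of adrenomedullin throughout, not for acinar-to-ductal metaplasia.

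The cells were pancreatic duct cells of newborn ferrets, either wild-type (WT) or CFTR knockout (CF), taken at an age of 1 to 3 days, grown to passage 10 and then polarized on transwell inserts at an air-liquid interface (ALI). They were sampled at day 2, 5, 7 and 9 of ALI in the same ALI medium, and each genotype and day gave 1 droplet-based single-cell library, 8 libraries in all. Every library was a pool of cells from 3 donors of its genotype, and cells were not assigned to donors here. No value therefore has a replicate error. The 4 days of a genotype are time points and not replicates of one another, so no test between genotypes or days was run, and the intervals below are 95% intervals that cover counting error only. PCR copies were collapsed by unique molecular identifiers (UMIs).

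Glycolysis splits glucose into pyruvate in the cytosol, and LDHA then turns pyruvate into lactate, which lets glycolysis run on when mitochondria take up little pyruvate. Where oxygen is scarce, prolyl hydroxylases such as EGLN3 stop marking the HIF transcription factors for destruction, and the HIF factors then raise glucose import, most glycolytic enzymes, carbonic anhydrase IX (CA9), VEGFA and EGLN3 itself. Several of these genes also answer to growth signals, amino acid supply and cell type, so a high level of one of them is not in itself a sign of low oxygen.

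The WT libraries held 4634 to 6224 retained cells with median UMI counts of 14949 to 16862 per cell, and the CF libraries held 1607 to 4499 cells with medians of 17833 to 23427. Cells under 3000 UMIs numbered 80, 150, 73 and 136 in WT at day 2, 5, 7 and 9, and 39, 45, 411 and 224 in CF. CF clusters 13 and 21, both of low depth, held 267 and 136 of the 1607 cells of CF day 7. Any 2 libraries shared 1 to 14 cell barcodes. CFTR, the targeted gene, was at 6.57, 16.9, 15.9 and 29.5 CPM (counts per 1e6 UMIs of a library) in WT PDE at day 2, 5, 7 and 9, and at 2.50, 8.69, 11.1 and 11.4 CPM in CF PDE. It was lower in CF at each day but was not absent, while the study describes its homozygous knockout ferrets as making neither CFTR mRNA nor protein. Against WT cells of low SOX2, described below, which had 5.31, 4.94, 9.43 and 25.9 CPM, CF was lower at day 2 and day 9 and higher at day 5 and day 7. Transcript counts do not show whether the knockout allele gave protein. The duct keratin KRT19 was at 3771 to 5113 CPM in the 8 libraries. The 3 of 9 acinar enzyme genes found in the matrices were under 1 CPM in every library, as were the 4 endocrine and the 4 endothelial markers, so the class names with "acinar" in them, which are those of the deposited cell table, did not go with acinar enzyme transcripts. Of the 4 immune markers CD68 alone passed 1 CPM. The summed level of the 7 stromal markers was 2.30 to 5.79 CPM in WT and 7.60, 1.53, 30.6 and 21.3 CPM in CF.

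Most of the 10 genes were lower at day 9 than at day 2, 8 of them in WT and 9 in CF, and CA9 was the gene with the widest gap between CF and WT PDE. LDHA was at 720.0, 383, 400.0 and 256 CPM in WT at day 2, 5, 7 and 9, and at 612, 448, 374 and 273 CPM in CF. Its highest library was WT day 2 and its lowest was WT day 9, a ratio of 2.81, with all CF libraries in between. The CF to WT difference of LDHA at day 9, 0.09 on the log2 scale, became -0.04 with TMM factors. ENO1, the enolase, which acts late in glycolysis, was at 639, 358, 333 and 243 CPM in WT and at 684, 395, 404 and 356 CPM in CF. The largest step of both genes in CPM came between day 2 and day 5. Of the pair, ENO1 alone was higher in whole CF libraries at each of the 4 days. In the ductal class alone, all its clusters included, ENO1 differed by -0.07, -0.19, -0.66 and -0.76 log2 units, and on the ductal clusters that kept their name, as set out below, by 0.23, -0.14, -0.21 and 0.11.

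PGK1, which makes the first ATP of the pathway, and ALDOA, the aldolase, varied less between libraries. PGK1 was at 173, 158, 146 and 136 CPM in WT and at 203, 169.5, 171 and 153 CPM in CF, so CF was higher at each day by 0.10 to 0.23 on the log2 scale. With TMM factors the PGK1 difference was 0.02 at day 7 and 0.05 at day 9. Against WT cells of low SOX2 it was -0.04 at day 5. ALDOA was at 207, 188, 165 and 165 CPM in WT and at 230.2, 185, 167 and 145 CPM in CF. The genotypes crossed for ALDOA, and its differences at day 5 and day 7 changed sign when libraries were scaled by TMM or median-of-ratios factors. The intervals of WT day 5 and CF day 5, and of CF day 7 and WT day 7, overlapped for this gene.

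SLC2A1, also known as GLUT1, was higher in CF PDE at every day. Its level was 57.1, 42.1, 44.0 and 34.0 CPM in WT and 82.2, 63.0, 75.1 and 51.2 CPM in CF. The CF to WT ratio was 1.44 (1.39 to 1.49) at day 2, 1.499 (1.44 to 1.56) at day 5, 1.71 (1.62 to 1.79) at day 7 and 1.51 (1.43 to 1.59) at day 9. No day reached 2-fold. The same comparison within the deposited ductal class gave the opposite sign at day 5, 7 and 9, and the classes are set out below.

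EGLN3 had the steepest time course of the 10 genes. It was at 34.0, 7.68, 7.06 and 4.09 CPM in WT and at 26.1, 9.33, 3.80 and 2.30 CPM in CF. Day 9 stood at 0.120 (0.108 to 0.134) of day 2 in WT and at 0.0881 (0.0725 to 0.106) of day 2 in CF. The highest library was 14.8 times the lowest, against 1.495 times for PGK1. Between genotypes the sign alternated, with CF lower at day 2, 7 and 9 and higher at day 5.

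CA9 encodes a carbonic anhydrase of the cell surface that hydrates carbon dioxide to bicarbonate and protons. It was at 1.68, 3.55, 3.05 and 2.35 CPM in WT and at 8.41, 9.84, 13.8 and 12.7 CPM in CF. All 4 CF libraries lay above all 4 WT libraries. The CF to WT ratio was 5.02 (4.29 to 5.90) at day 2, 2.77 (2.44 to 3.16) at day 5, 4.54 (3.89 to 5.31) at day 7 and 5.41 (4.61 to 6.38) at day 9. CF day 9 against CF day 7 gave a ratio of 0.917 (0.813 to 1.03) and WT day 7 against WT day 5 one of 0.860 (0.729 to 1.01), and both intervals held 1. WT day 9 was lower than WT day 7, at 0.770 (0.636 to 0.930). Neither SOX2-low nor SOX2-high WT cells, set out below, were higher in CA9 at day 5 or day 9 than at day 2. The SOX2-low cells, where CA9 was high, went from 892 of 6224 cells at day 2 to 1801 of 5326 at day 5.

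VEGFA, the vascular growth factor, was at 120.1, 65.8, 76.0 and 51.7 CPM in WT and at 109.7, 103, 113 and 95.0 CPM in CF. In whole libraries day 9 stood at 0.866 (0.837 to 0.896) of day 2 in CF and at 0.430 (0.416 to 0.445) in WT. Within each deposited CF class measured at both days the drop was larger, from 215 to 114 CPM in centroacinar, from 102 to 31.7 CPM in ductal and from 23.9 to 12.7 CPM in centroacinar_progenitor cells, while the high centroacinar class grew from 1131 of 4499 to 1957 of 2489 cells. From day 5 on, CF was the higher genotype, by 1.57 (1.52 to 1.62), 1.48 (1.42 to 1.54) and 1.84 (1.76 to 1.92) times.

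ADM encodes a secreted vasodilator peptide. Its level was 17.3, 27.2, 21.1 and 10.3 CPM in WT and 19.4, 14.1, 8.61 and 7.06 CPM in CF, with the highest WT library at day 5 and the highest CF library at day 2. Neither the SOX2-low nor the SOX2-high WT cells, which are set out below, were higher at day 5 than at day 2, and the SOX2-low cells, where ADM was high, went from 892 of 6224 to 1801 of 5326 cells. The CF to WT ratio was 1.12 (1.05 to 1.19) at day 2, 0.519 (0.482 to 0.557) at day 5, 0.407 (0.359 to 0.461) at day 7 and 0.688 (0.606 to 0.779) at day 9. NDRG1, a cytosolic protein raised by stress and differentiation, was the least ordered member: it was at 6.75, 7.89, 9.08 and 8.89 CPM in WT and at 9.64, 6.66, 8.26 and 5.16 CPM in CF. In the order of its 8 libraries, 5 of the 7 neighbouring pairs had overlapping intervals.

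**Figure D1:**
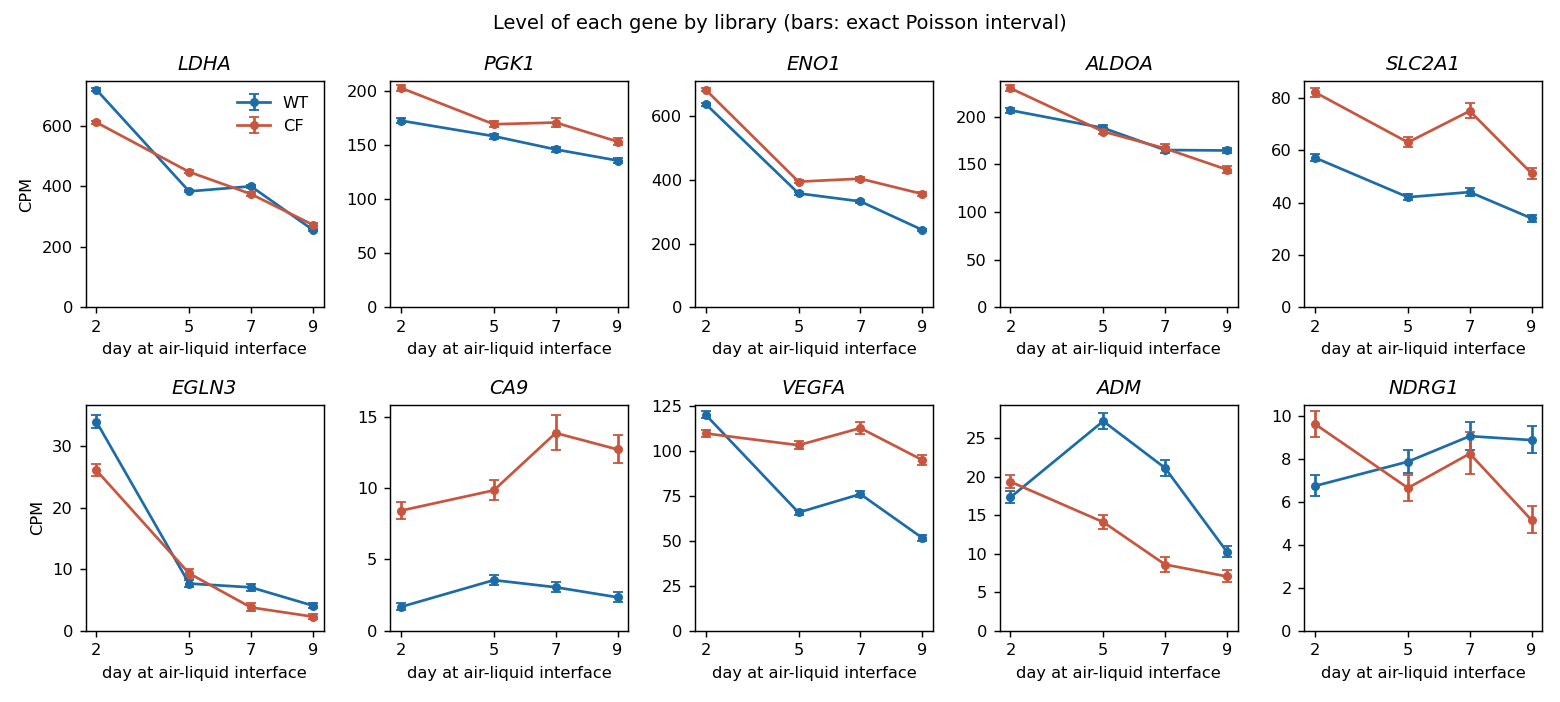
Level in CPM (y axis, from 0) against day of ALI culture (x axis) for each of the 10 genes, with WT in blue and CF in red, 1 library per point and bars for the 95% Poisson interval. LDHA, ENO1 and EGLN3 are highest at day 2 in both genotypes, while the 4 CF values of CA9 (8.41 to 13.8 CPM) lie above the 4 WT values (1.68 to 3.55 CPM).

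Differences were expressed as the log2 of CPM plus 1 in one library over CPM plus 1 in the other, and a gene was counted where this reached 2-fold. The scale understates the difference of a gene near 1 CPM, such as CA9. Between genotypes, CA9 was counted at each of the 4 days, at 1.81, 1.25, 1.87 and 2.03 log2 units higher in CF. ADM was counted at day 7 alone, at -1.20, with -0.90 at day 5 and -0.48 at day 9. The other 8 members stayed under 2-fold at all 4 days.

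Over all genes of at least 10 CPM in 1 of the 2 libraries, the share that reached 2-fold towards CF was 4.33% at day 2, 2.25% at day 5, 4.93% at day 7 and 3.56% at day 9, and the share that reached it towards WT was 4.06%, 4.08%, 2.83% and 3.78%. CA9 passed that limit on level at day 7 and day 9 only. Of the members, 8, 7, 8 and 8 passed it at day 2, 5, 7 and 9, and NDRG1 passed it at none of them. The member median of 10 was 0.15, 0.18, 0.12 and 0.13, against a median of all genes tested of -0.00, -0.05, 0.14 and 0.09. As a set the 10 genes thus gave at most 1 higher and 1 lower gene a day.

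**Figure D2:**
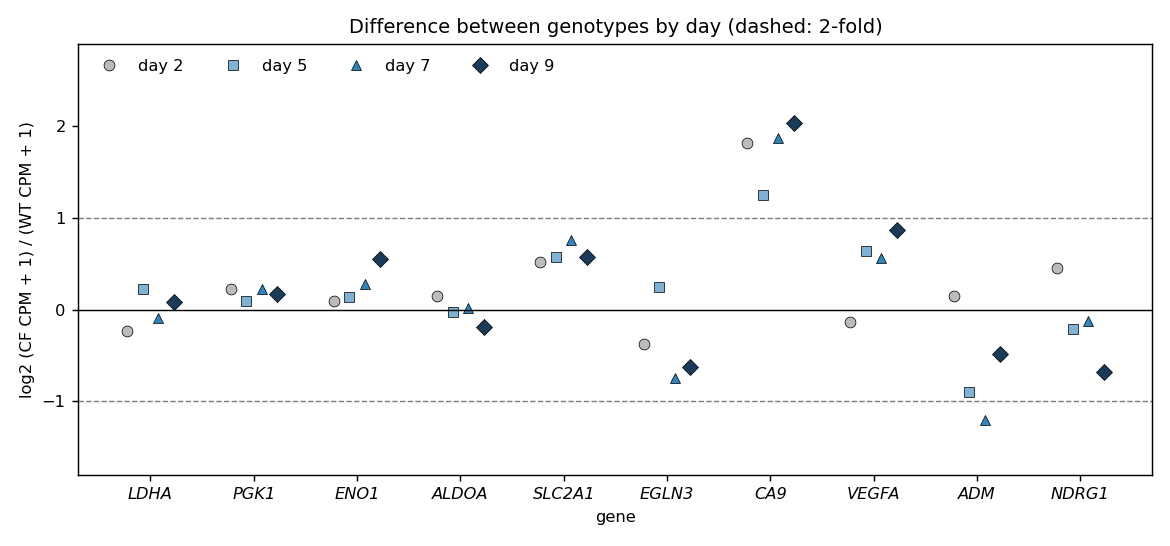
Log2 of (CF CPM + 1) over (WT CPM + 1) on the y axis for each gene on the x axis, with 1 symbol per day and dashed lines at 2-fold. CA9 lies above the upper line at all 4 days, ADM lies under the lower line at day 7 (-1.20), and the glycolytic enzymes stay between -0.23 and 0.55.

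Over time, 4 of the 10 genes were at least 2-fold lower at day 9 than at day 2 in WT: LDHA at -1.49, ENO1 at -1.39, EGLN3 at -2.78 and VEGFA at -1.20. In CF there were 3, LDHA at -1.16, EGLN3 at -3.04 and ADM at -1.34, while ENO1 was at -0.94 and VEGFA at -0.21. The count depended on the cells and the scaling. With TMM factors it was 4 in WT and 5 in CF. In the ductal class alone it was 2 in WT and 6 in CF, where ENO1 was at -1.59, SLC2A1 at -1.64 and VEGFA at -1.65. Of the 284 CF ductal cells of day 9, 233 lay in cluster 19, whose leading genes go against that name. ADM, at -0.70 in the whole WT libraries, went from 67.5 to 25.5 CPM in SOX2-low and from 9.96 to 3.58 CPM in SOX2-high WT cells. In SOX2-low WT cells alone LDHA was at -0.74 and VEGFA at -0.22, while ENO1 went from 721 to 326 CPM and EGLN3 from 16.5 to 2.87 CPM. No member was 2-fold higher in either genotype. Over all genes of the whole libraries, 6.37% were at least 2-fold lower and 9.56% higher in WT, and 2.95% lower and 6.60% higher in CF. The member median was -0.72 in WT and -0.73 in CF, against 0.10 and 0.15 over all genes tested. In whole libraries NDRG1 was the sole member whose 2 time courses had opposite signs, at 0.35 in WT and -0.79 in CF. In SOX2-low WT cells alone NDRG1 was at -0.01 and CA9 at -0.61, while CA9 was at 0.54 in CF.

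As a sum, proliferation genes were also highest at day 2 in both genotypes, but in WT their steps differed from those of LDHA. WT LDHA at day 5 stood at 0.532 of day 2, and at day 7 at 1.04 of day 5. The 8 proliferation genes summed to 329, 226, 85.7 and 7.82 CPM in WT and to 136, 69.3, 21.3 and 9.82 CPM in CF. All 8 were at least 2-fold lower at day 9 than at day 2 in WT, against 6.37% of all genes. The part of proliferation in the lower LDHA, ENO1 and EGLN3 of day 9 was not tested. In CF day 2, where the proliferation sum was lower than in WT day 2, ENO1, PGK1 and ALDOA were higher and LDHA and EGLN3 lower.

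Levels by deposited class are given for classes of at least 50 cells in a library. LDHA is one of the genes by which the study described its acinar class, so its class levels are a description and no more. At day 2 LDHA was at 843 CPM in the WT acinar class, 820.2 in the WT Prolif_acinar class, 748 in WT ductal cells and 442 in WT centroacinar_progenitor cells. CF showed 813 CPM in centroacinar, 762 in Prolif_acinar, 589 in ductal and 437 in centroacinar_progenitor cells at that day. The progenitor class was the lowest of each genotype at day 2.

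SLC2A1 and VEGFA differed in opposite ways between classes in WT and CF. VEGFA was at 90.7, 108 and 89.2 CPM in WT ductal cells at day 5, 7 and 9 and at 28.6, 63.8 and 28.4 CPM in WT centroacinar cells. In CF it was at 68.1, 40.1 and 31.7 CPM in ductal and at 149.9, 165 and 114 CPM in centroacinar cells. SLC2A1 was at 53.8, 60.8 and 49.1 CPM in WT ductal against 23.4, 32.6 and 25.5 CPM in WT centroacinar cells, and at 43.1, 35.9 and 24.3 CPM in CF ductal against 89.6, 106 and 59.5 CPM in CF centroacinar cells. Both genes were thus higher in the class named ductal in WT and in the class named centroacinar in CF. Of the 284 CF ductal cells of day 9, 233 lay in cluster 19, whose leading genes go against that name. On the clusters that kept their name the order was the same, with SLC2A1 at 43.1, 41.7 and 31.1 CPM in CF ductal and 89.3, 105 and 58.2 CPM in CF centroacinar cells. LDHA and ENO1 at day 9 were at 320.1 and 392 CPM in CF ductal and at 294 and 396 CPM in CF centroacinar cells on those clusters. WT and CF cells had been clustered and named apart, and the CF centroacinar class held 1957 of 2489 cells at day 9 against 2361 of 5416 in WT, so a class name need not mark the same cells in both genotypes.

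SLC2A1 and VEGFA were at their lowest in the progenitor class of each library. In that class SLC2A1 was at 15.4 to 23.7 CPM in WT and 14.1 to 31.5 CPM in CF over the 4 days, and VEGFA was at 21.7 to 39.0 CPM and 12.7 to 27.9 CPM. LDHA was also lowest in the progenitor class in 5 of the 8 libraries, all but WT day 5, WT day 9 and CF day 9. PGK1 and ALDOA were not lowest there at day 2, where the progenitor class had the highest level of both genes in each genotype. ALDOA in WT at day 9 was higher in the progenitor class (204 CPM) than in ductal (156 CPM) or centroacinar cells (157 CPM).

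CA9 showed the sharpest class contrast within WT. It was at 2.20, 4.94, 5.14 and 5.15 CPM in WT ductal cells and at 7.62 and 8.80 CPM in WT Prolif_ductal cells at day 5 and 7. In the WT acinar, Prolif_acinar, centroacinar and centroacinar_progenitor classes it was at 0.125 to 1.17 CPM. In CF every class of at least 50 cells had 3.75 CPM or more, and the highest was the centroacinar class at day 7 with 19.2 CPM. ADM followed CA9 in WT, with 19.5 to 37.9 CPM in ductal and 41.3 to 51.4 CPM in Prolif_ductal cells, against 2.20 to 11.9 CPM in the other 4 WT classes.

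Genotypes were then compared within a class, on the 58 of 71 clusters whose leading genes or depth did not go against their deposited name, which gave 12 pairs of class and day. CF ductal clusters 8, 9 and 19 were left out on 1 marker of another class against 0 of their own. Many kept clusters also had 0 markers of their own, so being kept is no support for a name. The CF ductal class went from 2593 to 1794 cells at day 2 and from 284 to 51 at day 9. CA9 was higher in CF in 12 of 12 and reached 2-fold in 9. The WT counts behind some of these were very small. At day 2 Prolif_acinar cells had 54 CA9 UMIs in CF and 3 in WT, a ratio of 64.4 (20.9 to 322), and at day 9 centroacinar cells had 553 and 21, a ratio of 23.9 (15.5 to 38.9). Ductal cells gave the lowest ratios, with 1.95 (1.59 to 2.39) at day 5, 2.06 (1.36 to 3.03) at day 7 and 1.76 (0.861 to 3.22) at day 9, where the CF side rested on 11 UMIs in 51 cells. CA9 was therefore higher in CF in each class and day compared, least so in ductal cells, and at day 9 the interval of the ductal ratio held 1. With all deposited ductal clusters the difference was 1.48, 0.80, 0.36 and 0.12 log2 units at day 2, 5, 7 and 9. The day 9 levels were 5.68 CPM in CF and 5.15 CPM in WT. The WT side of these classes differed in SOX2, as set out below. Kept WT Prolif_acinar and progenitor clusters were all SOX2-high, and kept WT centroacinar clusters were so apart from cluster 30. SOX2-high WT cells had little CA9, and WT ductal clusters were of both kinds. The part of this make-up in the ratios was not tested.

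PGK1 was also higher in CF in 12 of 12 pairs, by 0.15 to 0.43 log2 units, and never reached 2-fold. LDHA was higher in CF in 5 of 12 pairs. Its difference was -0.43 in ductal cells at day 7, and 1.35, 0.48 and 0.57 in centroacinar cells at day 5, 7 and 9. ENO1 was higher in 10 of 12 and reached 2-fold in centroacinar cells at day 5 (1.16) and day 9 (1.28), with 0.85 at day 7. In the same class VEGFA was higher in CF by 2.32, 1.20 and 1.94 and SLC2A1 by 1.89, 1.59 and 1.17 at day 5, 7 and 9. In ductal cells SLC2A1 was at -0.32, -0.53 and -0.64 and VEGFA at -0.35, -0.97 and -0.995 at the same days. At day 5, 7 and 9 both genes were thus higher in CF in centroacinar cells and lower in CF in ductal cells. At day 2 SLC2A1 was higher in CF in ductal cells, by 1.48 (1.42 to 1.55) times, and in progenitor cells, by 1.33 (1.16 to 1.53) times. Progenitor cells stood at 0.40, 0.41, -0.35 and -0.45 log2 units for SLC2A1 and at -0.68, 0.12, -0.45 and -0.84 for VEGFA at day 2, 5, 7 and 9. The largest centroacinar cluster at day 5 was CF cluster 0, with 654 of 1576 cells, and WT cluster 7, with 313 of 736. At day 7 it was CF cluster 16, with 174 of 729 cells, and WT cluster 12, with 330 of 632. At day 9 it was cluster 3 in both genotypes, with 521 of 1643 cells in CF and 965 of 2192 in WT.

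ADM split by class. It was lower in CF ductal cells by 1.32, 1.74 and 1.15 log2 units at day 5, 7 and 9, with -0.06 at day 2. In centroacinar_progenitor cells it was higher in CF at all 4 days, at 2.27, 0.93, 1.27 and 1.45. The WT progenitor level in these kept clusters, all of them SOX2-high, was low, at 3.74, 3.41, 4.08 and 2.35 CPM. EGLN3 was lower in CF by 2-fold or more in 3 of the 12 pairs and NDRG1, ALDOA and PGK1 in none. For EGLN3 these were centroacinar cells at day 7, at 0.265 (0.188 to 0.370), and ductal cells at day 7 and day 9. The ductal ratios were 0.388 (0.155 to 0.811) and 0.368 (0.0442 to 1.35), from 7 and 2 CF UMIs, and the day 9 interval held 1. With all deposited ductal clusters the day 7 difference was -0.21 log2 units.

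**Figure D3:**
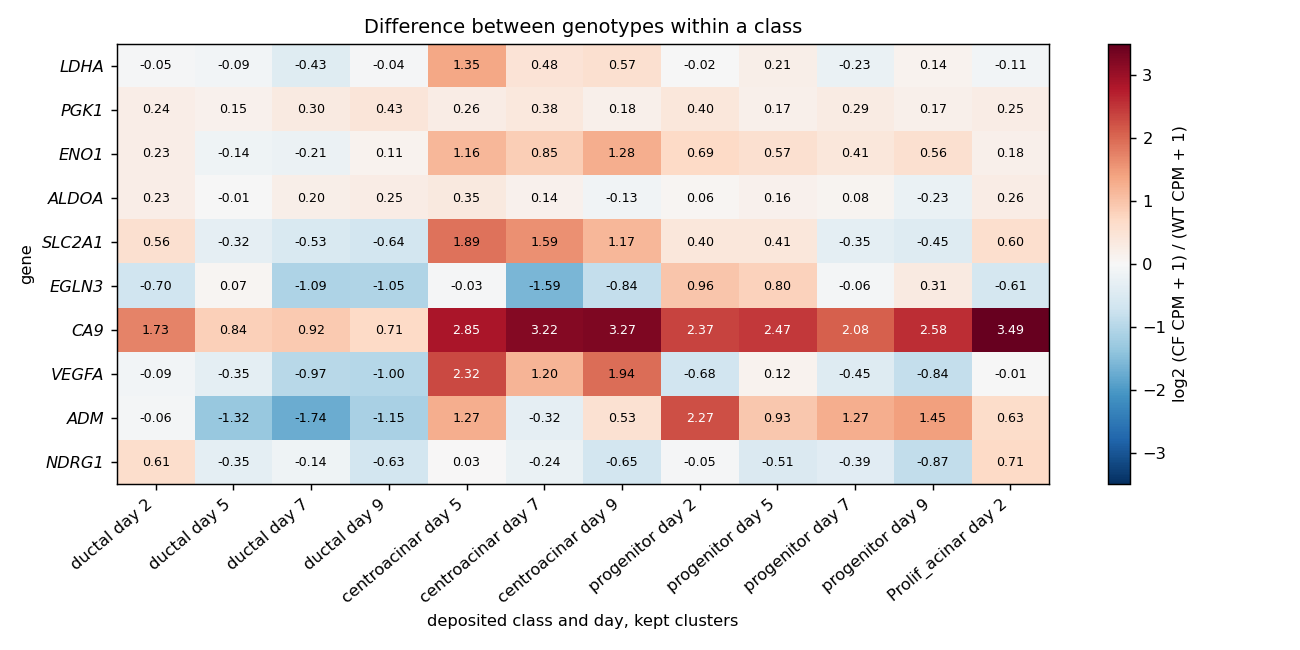
Log2 of (CF CPM + 1) over (WT CPM + 1) for each gene (rows) in each deposited class and day with at least 50 kept cells in both genotypes (columns), red where CF is higher and blue where WT is higher. The CA9 row is red in all 12 columns (0.71 to 3.49), and SLC2A1 and VEGFA are red in the 3 centroacinar columns and blue in the ductal columns of day 5, 7 and 9.

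The WT clusters were next divided by SOX2, a transcription factor of foregut-derived stem and progenitor cells. This division was known from earlier results of the same data. Of the 41 WT clusters, 12 had under 10 CPM of SOX2 (SOX2-low) and 29 had more (SOX2-high). SOX2 itself was at 106 to 131 CPM in SOX2-high cells and at 0.948 to 3.88 CPM in SOX2-low cells, and the 4 CF libraries held 1, 1, 3 and 1 SOX2 UMIs. SOX2-low cells made up 892, 1801, 1276 and 1510 of the WT cells at day 2, 5, 7 and 9.

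CA9 in WT PDE lay almost wholly in the SOX2-low cells. Their level was 11.5, 7.50, 8.25 and 7.20 CPM at day 2, 5, 7 and 9, from 169, 348, 236 and 186 UMIs. SOX2-high cells were at 0.230, 0.201, 0.313 and 0.220 CPM, from 23, 11, 17 and 13 UMIs. The ratio of SOX2-low to SOX2-high was 49.98 (32.2 to 81.0), 37.4 (20.6 to 75.5), 26.4 (16.1 to 46.0) and 32.7 (18.6 to 62.5). Against SOX2-low cells alone, CF PDE differed by -0.41, 0.35, 0.68 and 0.74 log2 units, so the day 2 difference had the opposite sign and no day reached 2-fold. The size of the CF to WT difference in CA9 therefore depended on which WT cells were set against CF. Whether free RNA gave the few UMIs of SOX2-high cells was not tested.

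By cluster the division was nearly complete. Of the 27 SOX2-high clusters of at least 50 cells, 25 had 0.755 CPM of CA9 or less, and the exceptions were cluster 36 with 16 UMIs (5.82 CPM) and cluster 35 with 1 UMI (2.54 CPM). Of the 12 SOX2-low clusters, 11 had 4.13 to 10.1 CPM. The other was cluster 38, with 60 cells of low depth and 0 UMIs, which allows up to 14.6 CPM when the limit is set at 3 UMIs per cluster. The 29 CF clusters had 4.37 to 23.4 CPM, with a median of 9.50 CPM. SOX2-high clusters 32 and 37 had no CA9 UMI either, which by the same limit allows up to 0.973 and 2.00 CPM.

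ADM was also higher in SOX2-low than in SOX2-high WT cells, at 67.5, 55.2, 50.9 and 25.5 CPM against 9.96, 3.54, 5.47 and 3.58 CPM. Here CF PDE stayed below SOX2-low cells, by 1.75, 1.89, 2.43 and 1.72 log2 units, and above SOX2-high cells at every day. The 12 SOX2-low clusters had a median of 42.5 CPM of ADM, the 29 CF clusters 11.7 CPM and the 27 SOX2-high clusters 4.33 CPM. Both genes were thus higher in SOX2-low than in SOX2-high cells, while in CF ADM was below the SOX2-low level at each day and CA9 was below it at day 2 alone.

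SLC2A1 was at 76.3, 62.8, 67.5 and 55.5 CPM in SOX2-low cells, at 54.3, 24.5, 31.6 and 24.5 CPM in SOX2-high cells, and within 0.15 log2 units of the SOX2-low level in CF at all 4 days. VEGFA did not follow this pattern, with 87.1, 62.1, 67.7 and 74.6 CPM in SOX2-low and 125, 68.9, 80.4 and 41.7 CPM in SOX2-high cells, and CF above SOX2-low cells at every day by 0.33 to 0.73. EGLN3 at day 2 was higher in SOX2-high (36.6 CPM) than in SOX2-low cells (16.5 CPM), with CF in between.

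Of the enzymes, LDHA turned with time between the kinds of WT cells and ENO1 did not. LDHA was higher in SOX2-high cells at day 2, at 752 against 503 CPM, and lower at day 5, 7 and 9, at 265, 347 and 237 against 523, 501 and 300.2 CPM. ENO1 was lower in SOX2-high cells at all 4 days, at 627, 265, 279.8 and 207 CPM against 721, 468, 433 and 326 CPM. CF PDE differed from SOX2-low cells in ENO1 by -0.08, -0.25, -0.10 and 0.13 log2 units. PGK1 and ALDOA showed smaller gaps, the widest at day 5 with 158 CPM of ALDOA in SOX2-high and 225 CPM in SOX2-low cells, and at day 2 and day 9 the intervals of their ratios held 1. The drop in LDHA from day 2 to day 5 was thus found in SOX2-high cells and not in SOX2-low cells.

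**Figure D4:**
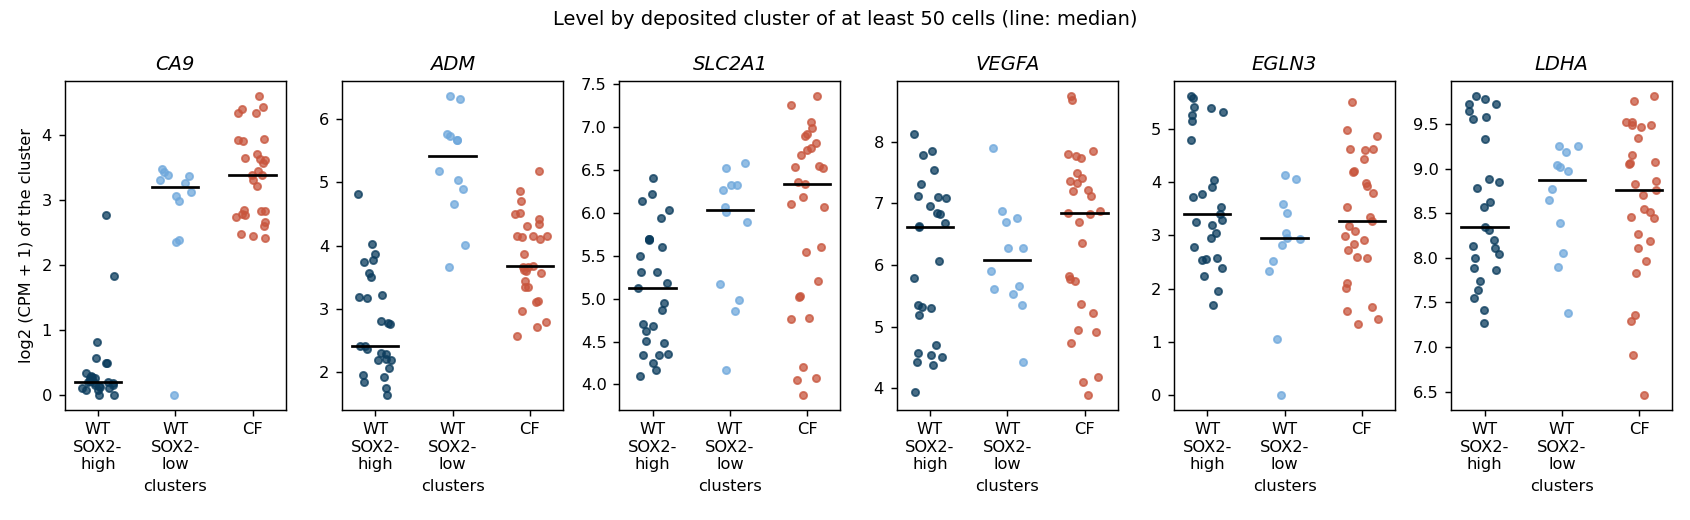
Log2 of (CPM + 1) of each deposited cluster of at least 50 cells (points, y axis) in WT SOX2-high, WT SOX2-low and CF clusters (x axis), with a line at the median, for 6 genes. For CA9 the SOX2-high clusters lie near 0 apart from clusters 36 and 35, while SOX2-low and CF clusters have medians of 8.20 and 9.50 CPM, and for ADM the CF median (11.7 CPM) lies between SOX2-high (4.33 CPM) and SOX2-low (42.5 CPM).

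Single clusters showed where each gene peaked. EGLN3 was highest in WT cluster 25 (Prolif_acinar, 48.2 CPM, 378 of 381 cells from day 2) and in CF cluster 9 (deposited as ductal, 44.8 CPM, 385 of 406 cells from day 2), whose own leading genes hold EGLN3 and several division genes. LDHA was highest in WT cluster 4 (ductal, 899 CPM, 1025 of 1030 cells from day 2) and CF cluster 2 (ductal, 897 CPM). ENO1 was highest in WT cluster 26 (acinar, 749 CPM) and CF cluster 1 (centroacinar, 942 CPM). Clusters and days were bound together, so a cluster peak at day 2 cannot be told apart from the day.

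CA9 was highest in CF cluster 11 (centroacinar, 23.4 CPM), with WT cluster 19 (ductal, SOX2-low) at 10.1 CPM. The leading genes of CF cluster 11 hold ACTA2, TAGLN, COL1A1 and COL1A2. The 7 stromal markers summed to 225 CPM in that cluster, with COL1A1 at 140.5 CPM and DCN and LUM at 6.01 and 1.87 CPM. Without it CF was still higher in CA9 at day 7 and day 9, by 1.70 and 1.91 log2 units. The lowest CF cluster for both CA9 (4.37 CPM) and ADM (4.93 CPM) was cluster 19, deposited as ductal and led by the secretory genes SPINK1, TFF3 and TFF2. ADM peaked in WT cluster 0 (ductal, SOX2-low, 81.5 CPM) and CF cluster 28 (35.2 CPM), which was deposited as centroacinar although its leading genes hold more markers of another class.

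Several extremes of the other members, but not all, lay in clusters of low depth. WT clusters 20, 35 and 38 and CF clusters 13, 21, 23 and 27 had median UMI counts under 1 part in 3 of their library. VEGFA was highest in WT cluster 35 (277 CPM) and CF cluster 23 (427 CPM), NDRG1 in WT cluster 38 (53.6 CPM) and CF cluster 13 (35.2 CPM), and SLC2A1 in CF cluster 27 (164 CPM). The lowest LDHA and PGK1 were in WT cluster 20 (153 and 79.3 CPM) and CF cluster 23 (87.2 and 56.1 CPM), and the lowest ALDOA in WT cluster 38 (87.6 CPM) and CF cluster 27 (64.7 CPM). CF cluster 27 also had the lowest ENO1 of its genotype (178 CPM), and WT cluster 3 (centroacinar) had 134 CPM. CF cluster 21 had the highest ALDOA of CF (258 CPM). The low-depth clusters thus held extremes in both directions, and the part of depth in them was not tested. Outside them, SLC2A1 was highest in WT cluster 19 (94.7 CPM), ALDOA in WT cluster 13 (249.8 CPM), and PGK1 in WT cluster 31 (209 CPM) and CF cluster 4 (271 CPM).

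The lowest values of the remaining members lay in clusters of ordinary depth apart from EGLN3 in WT. SLC2A1 was lowest in WT cluster 24 (16.1 CPM) and CF cluster 17 (13.7 CPM), both deposited as centroacinar_progenitor, the latter led by MUC5AC, LTF and OLFM4. VEGFA was lowest in cluster 7 of each genotype (14.4 and 13.9 CPM), both deposited as centroacinar and with WFDC2 among the leading genes. CF cluster 7 also had the lowest NDRG1 of CF (2.97 CPM), and WT cluster 37 the lowest of WT (0.666 CPM, 1 UMI). ADM was lowest in WT cluster 21 (2.11 CPM), and EGLN3 in CF cluster 3 (1.503 CPM) and in WT cluster 38, which had 0 UMIs.

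How alike the genes were across clusters was described by Pearson's r of log2(CPM + 1) over the 68 clusters of at least 50 cells, 39 WT and 29 CF, after centring within each genotype. Clusters of a genotype share libraries and differ in depth, so no p is attached. There were 4 pairs of 0.76 or more. LDHA went with ENO1 (0.91), PGK1 with ALDOA (0.82), SLC2A1 with VEGFA (0.86), and CA9 with ADM (0.76). PGK1 and ALDOA had values near 0 with SLC2A1 (-0.02 and -0.09) and negative ones with VEGFA (-0.29 and -0.29) and NDRG1 (-0.41 and -0.40). EGLN3 was closest to LDHA (0.59) and ENO1 (0.58) and had -0.26 with CA9.

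Among all 8293 genes compared in this way, the nearest to LDHA were LOC106006904 (0.95), RACK1 (0.95) and NQO2 (0.94), and those nearest to ENO1 were STOML2 (0.94), EEF1G (0.94) and GAPDH (0.94), the last a glycolytic enzyme. SLC2A1 was nearest to TJAP1 (0.92), KCNJ12 (0.91) and NHS (0.90), and VEGFA to NRG1 (0.94), JAG2 (0.93) and KCNN4 (0.93). CA9 was nearest to CKB (0.87), MEIS2 (0.86) and LOC106003826 (0.84), and ADM to TBC1D10C (0.84), FOXQ1 (0.84) and GNG2 (0.84). EGLN3 was nearest to S100A9 (0.79), TNIP3 (0.76) and MIF (0.76). PGK1 was nearest to NOPCHAP1 (0.85), CNIH1 (0.85) and POLE4 (0.84), ALDOA to BLVRB (0.86), LOC123392536 (0.85) and LOC101671645 (0.85), and NDRG1 to VPS9D1 (0.80), TNK2 (0.78) and TNKS (0.78).

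**Figure D5:**
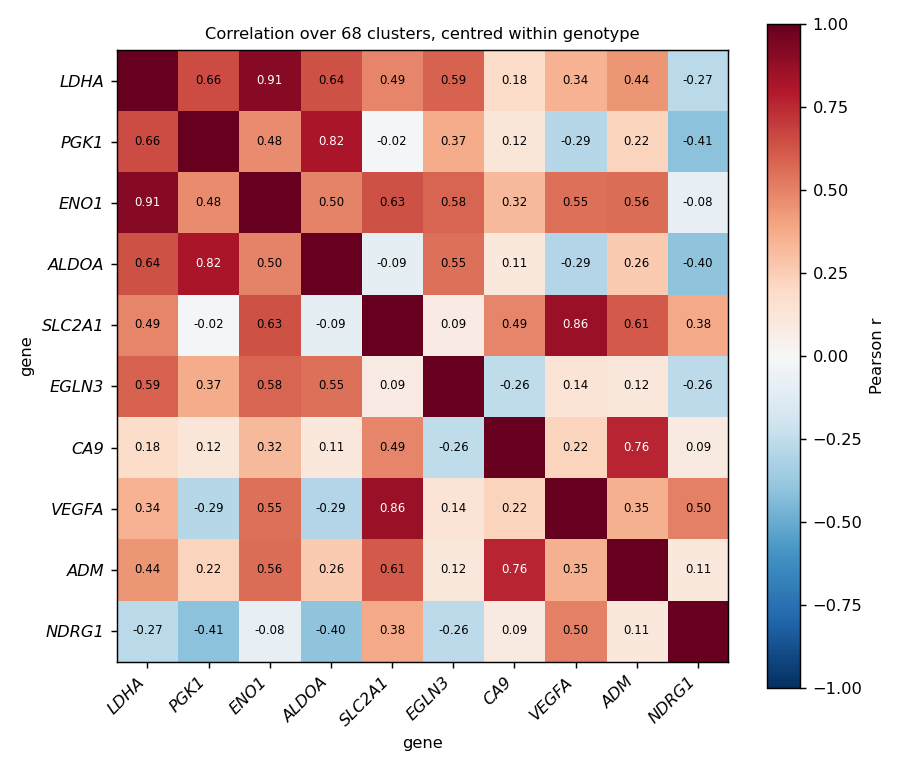
Pearson's r of log2(CPM + 1) between each pair of the 10 genes (both axes) over 68 clusters, centred within genotype, red where positive and blue where negative. The pairs LDHA and ENO1 (0.91), SLC2A1 and VEGFA (0.86), PGK1 and ALDOA (0.82) and CA9 and ADM (0.76) stand out, and PGK1 and ALDOA are negative with VEGFA and NDRG1.

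Other genes of these pathways were taken from 6 lists. Of 18 further glycolytic enzymes and transporters 16 were found, and PFKP and SLC16A1 were not analysed here. Between genotypes 10 or 11 of them passed 10 CPM, none was 2-fold higher in CF, and 1 was 2-fold lower, which was LDHB at each of the 4 days. Over all genes 4.06%, 4.08%, 2.83% and 3.78% were lower to that degree, so a count of 1 is near the background. LDHB, the lactate dehydrogenase subunit that favours lactate oxidation, was at 98.0, 109.5, 84.7 and 100.2 CPM in WT and at 19.0, 19.2, 24.2 and 26.4 CPM in CF, a difference of -2.31, -2.45, -1.77 and -1.88. In WT it was at 36.2, 31.3, 34.2 and 20.8 CPM in SOX2-low cells and at 107, 176, 111 and 135 CPM in SOX2-high cells. LDHB was thus low in both CF and SOX2-low WT cells, while LDHA in whole libraries differed between genotypes by -0.23 to 0.22. The largest mean difference towards CF in this list was that of HK1, the first enzyme of the pathway, at 0.32.

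Over time the wider glycolytic list had a median close to that of the members. It was -0.65 in WT and -0.70 in CF at day 9 against day 2. In WT 12 passed 10 CPM, of which 4 were 2-fold lower (GAPDH at -1.19, PGAM1 at -1.23, PFKM at -1.09 and PKM at -1.03) and 2 were higher (PFKFB3 at 1.80 and ENO2 at 2.44). In CF 11 passed, of which PKM (-1.03) and SLC16A3, a lactate exporter (-1.59), were 2-fold lower. ENO2 was at 2.44 in CF too, but with 7.16 CPM at day 9 it did not pass 10 CPM there. Over all genes the shares were 6.37% lower and 9.56% higher in WT, and 2.95% lower and 6.60% higher in CF. These 7 genes were named after their values were seen.

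The genes that lead pyruvate into mitochondria differed little. Of 10 listed, 9 were found (CS was not analysed here), 8 passed 10 CPM in each comparison, and the single 2-fold difference was PDK4, an inhibitory kinase of pyruvate dehydrogenase, at 1.17 higher in CF at day 2. PDK4 also had the highest mean difference over the 4 days, at 0.73, and PDK3, a sister kinase, the lowest, at -0.68. Of the 8 oxygen sensing genes, all of which passed, EPAS1, which encodes HIF2A, was 2-fold lower in CF at day 9 (-1.59) and had the lowest mean (-0.73), and HIF1AN the highest (0.24). HIF1A, named after its values were seen, lay between 0.05 and 0.42 at the 4 days.

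Of 24 further genes known to answer to low oxygen, 19 passed 10 CPM. At day 2, 5, 7 and 9 there were 3, 1, 3 and 2 at least 2-fold higher in CF and 0, 2, 0 and 0 lower. Over all genes the shares were 4.33%, 2.25%, 4.93% and 3.56% higher and 4.06%, 4.08%, 2.83% and 3.78% lower. The median of the list was 0.21, -0.15, -0.01 and 0.18, against -0.00, -0.05, 0.14 and 0.09 over all genes. TFRC, the transferrin receptor, had the highest mean difference (1.20), at 50.5, 68.2, 80.0 and 63.9 CPM in CF against 24.1, 27.0, 27.8 and 32.0 CPM in WT, and DDIT4 had the lowest mean (-0.51). The CA9 difference was thus not shared by most genes of the list. At day 9 against day 2, 3 of its genes were higher and 4 lower in WT, and 3 higher and 3 lower in CF. Over all genes the shares over time were 9.56% higher and 6.37% lower in WT, and 6.60% higher and 2.95% lower in CF.

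Of the proliferation list, all 8 genes were 2-fold lower in CF at day 2 and day 5, and 3 of the 3 that passed at day 7, while none of the 8 passed 10 CPM at day 9. Over all genes 4.06%, 4.08% and 2.83% were lower to that degree at day 2, 5 and 7. UBE2C had the lowest mean difference (-1.25) and CDC20 the least low (-0.91). Of 10 genes of the amino acid stress response, DDIT3, also known as CHOP, was 2-fold lower in CF at all 4 days, at -2.22, -1.46, -2.04 and -1.10. Its level was 15.7, 17.6, 15.9 and 19.5 CPM in CF, against 42.2 to 75.4 CPM in SOX2-high and 45.3 to 92.6 CPM in SOX2-low WT cells, so it was lower in CF than in both kinds of WT cells at each day. LDHB was lower in CF than in both kinds at day 2, 5 and 7 and lay above SOX2-low cells at day 9. VLDLR had the highest mean of that list (0.88). On the scale with 1 CPM added, LDHB and DDIT3 were the only genes of the 6 lists that were 2-fold apart in the same direction at every day. TFRC missed this at day 9 alone, at 0.98, where its plain ratio was 2.001 (1.90 to 2.11).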

How the data were processed

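The authors aligned the reads to the ferret assembly ASM1176430v1.1 with Cell Ranger 5.0.1 and deposited UMI counts per gene and barcode, which are not normalized. Their deposited cell table gave, for 32945 retained cells, the UMI count, the percent of mitochondrial UMIs, a cluster and 1 of 6 classes. The study's filters were 200 genes and 20% mitochondrial reads per cell. DoubletFinder had been applied before deposit, so none was run here. The deposited normalized table, lineage scores and cell cycle columns were not used.

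UMI counts of retained cells were summed per library, class or cluster and scaled to CPM. Intervals are exact Poisson for a sum and exact conditional binomial for a ratio, checked on simulated data. Genotype and day came from the sample titles. The growth protocol per the labels names 3 weeks of ALI before use, which does not match days 2 to 9, and this was not resolved. A pseudocount of 1 CPM was used on the log2 scale, and background shares cover genes of at least 10 CPM in 1 of the 2 libraries. Clusters were kept under their class name unless more of their 10 leading genes were markers of another class (6 clusters), or they were of low depth (7 clusters with a median under 1 part in 3 of the library's median, and no marker of their own).

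The members, lists and alternatives were chosen with earlier results of these data known. Named genes were all members, the highest and lowest cluster of each, list genes 2-fold apart at all 4 days or with the largest mean difference, and the 3 nearest genes. Genes outside this rule are marked in the text. Tools were Python 3.11.15 with numpy 2.4.6, scipy 1.17.1 and pandas 2.3.3, and edgeR 4.0.16 in R 4.3.3 for TMM factors. No sequence is printed, since no sequence file of this organism was used here.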

Additional observations from a re-analysis of the deposited data

Results flagged for a closer look

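With 1 library per genotype and day, the differences listed here were not tested. They are members whose CF to WT ratio lay above 1 at one day and below 1 at another, with both counting intervals off 1. On the log2 scale LDHA was at 0.22 at day 5 and -0.23 at day 2, ALDOA at 0.15 at day 2 and -0.19 at day 9, and EGLN3 at 0.25 at day 5 and -0.75 at day 7. VEGFA was at 0.87 at day 9 and -0.13 at day 2, ADM at 0.15 at day 2 and -1.20 at day 7, and NDRG1 at 0.46 at day 2 and -0.68 at day 9. Against SOX2-low WT cells alone LDHA turned to -0.22 at day 5 and 0.28 at day 2. At day 2 VEGFA turned to 0.33, ADM to -1.75 and NDRG1 to -0.05, while their other listed day kept its sign. ALDOA and EGLN3 kept both signs.

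In whole libraries NDRG1 was also the member whose time course differed in sign between genotypes. Day 9 against day 2 was at 0.35 in WT and -0.79 in CF. In SOX2-low WT cells alone NDRG1 was at -0.01, while CA9 was at -0.61 there and at 0.54 in CF. Between classes at the same day, ADM was at least 2-fold apart in opposite directions. At day 5 it was at 1.27 in centroacinar against -1.32 in ductal cells. At day 7 it was at 1.27 in centroacinar_progenitor against -1.74 in ductal cells, and at day 9 at 1.45 against -1.15 in these 2 classes. Kept WT progenitor clusters were all SOX2-high, and kept WT centroacinar clusters were so apart from cluster 30. WT ductal clusters were of both kinds. ADM in CF lay between SOX2-low and SOX2-high WT cells at each day. The part of this make-up in the signs was not tested.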

How the results depend on the processing

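Of 60 member differences, 12 reached 2-fold, and 11 of the 12 kept their direction under every alternative run, though not their size. The exception was CA9 at day 2, at -0.41 against WT cells of SOX2-low clusters alone. In the ductal class alone CA9 went from 1.87 to 0.36 at day 7 and from 2.03 to 0.12 at day 9. In SOX2-low WT cells, day 9 against day 2 went from -1.20 to -0.22 for VEGFA and from -1.49 to -0.74 for LDHA. Of the 48 smaller differences, 26 changed direction under at least 1 alternative. The number of members at least 2-fold apart between genotypes became 0 at day 5 with a pseudocount of 5 CPM and 2 without the clusters whose leading genes go against their name. At day 7 it became 1 with that pseudocount, with each cell weighted equally, with SOX2-low WT cells alone and with equal weight for each class, and at day 9 it became 2 with each cell weighted equally and in the ductal class alone, where the genes were VEGFA (-1.46, from 0.87) and ADM (-1.69) and no longer CA9. For day 9 against day 2 it became 2 in WT in the ductal class alone and with equal class weight, and in CF 5 with TMM factors and 6 under both of these other settings. TMM scaling moved the median gene by -0.20 at day 7 and -0.12 at day 9 between genotypes, and by -0.19 in WT and -0.26 in CF over time. Between genotypes the genes counted changed too, also where their number did not. With SOX2-low WT cells alone ADM was the gene counted at each day, at -1.75, -1.89, -2.43 and -1.72, and CA9 was not counted. In the ductal class alone ADM was counted in place of CA9 at day 5, and ADM and VEGFA (-1.41) were counted at day 7. Background shares at 1 CPM in place of 10 CPM were 2.79% to 9.65%. Leaving out low-UMI clusters or CF cluster 11 was chosen after the values were seen and changed no count by over 1.5 times. The causes of these shifts were not tested. Genes under 10 CPM in most or all libraries, such as CA9 and NDRG1, are limited by depth in small classes. No paired analysis was possible because each genotype and day had 1 library, so the groups compared share 1 replicate number, and days are not replicates.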
